A study of Mus musculus with 2 samples.

Results

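Aquaporins are membrane channels that let water cross a lipid bilayer, and some of them also pass glycerol or other small solutes. The family was examined here in mouse embryonic stem (ES) cells through its 10 listed genes, *Aqp1* to *Aqp9* and *Aqp11*, all of which had an entry among the 21935 gene symbols in the files. *Aqp8* was chosen by its RPKM and reads in these same 2 libraries, for its very large fall in shKdm5b ES cells, so its difference between the libraries, and that of its relatives in the same comparison, is given as a description. For each symbol the RefSeq transcript entry with the highest mean RPKM (a read count scaled by transcript length and library depth) was used, and *Aqp8* was the only member with more than 1 entry.

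The cells were R1 ES cells, a mouse line grown on irradiated embryonic fibroblasts with LIF, the cytokine that sustains self-renewal. The shKdm5b cells carried a lentiviral short hairpin RNA against *Kdm5b*, which encodes a histone H3K4 demethylase, and the control shLuc cells carried one against luciferase. Transduced cells were selected with puromycin, and both cultures were differentiated for 72 h without LIF before polyadenylated RNA was sequenced. The labels give low-attachment dishes for differentiation, while the study's methods name gelatin-coated dishes as well. Each condition has 1 library, so no difference has a replicate check, no p-value is given, and an effect of the hairpin cannot be told apart from a difference between the cultures or libraries. The libraries hold 78172698 (shLuc) and 72702698 (shKdm5b) aligned reads of 50 bases. Distinct alignment positions numbered 32.9% of the shLuc reads and 20.1% of the shKdm5b reads. The intervals below are 95% intervals and cover counting error only, and reads copied from the same fragment would make them too narrow. The level of *Kdm5b* was 104 RPKM (51378 reads) in shLuc and 3.01 RPKM (1377 reads) in shKdm5b cells, or 2.88% of the control (2.73% to 3.04%). Of the 8 listed genes of pluripotent cells, *Pou5f1* (3.40-fold) and *Esrrb* (1.95-fold) were lower in shKdm5b cells and *Dppa5a* was 1.51-fold higher. The other 5, *Sox2* and *Nanog* among them, were within 1.5-fold. The share past 1.5-fold was 37.5%, below the 48.3% of the 11804 genes above 1 RPKM in a library. Of the 9 listed markers of feeder fibroblasts, only *Thy1* (4.09 and 4.59 RPKM) and *Fbln2* (1.05 and 0.381 RPKM) exceeded 1 RPKM in a library. Below that level *Dcn* (17 and 43 reads) and *Pdgfrb* (212 and 322 reads) were higher in shKdm5b cells and *Postn* had 3 and 0 reads.

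Members of the family differ in what they carry and where they are best known. AQP1, AQP2, AQP4 and AQP5 are classical water channels, AQP3, AQP7 and AQP9 are aquaglyceroporins that also pass glycerol, AQP6 and AQP11 are found mostly on intracellular membranes, and AQP8 passes water and also ammonia and hydrogen peroxide. AQP8 is known from the epithelia of colon, pancreas, liver and testis and also from mitochondria. Differentiating ES cells can form extra-embryonic endoderm, the absorptive epithelium that surrounds the early embryo and lines the yolk sac.

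*Aqp8* lies on chromosome 7 from 123462291 to 123468004 on the plus strand (GENCODE M21, GRCm38), with 6 exons, none of which overlaps an exon of another annotated gene. The sequence before its start is shown with that of *Aqp3*, because these genes gave the largest fall and the largest rise among the 5 aquaporins with over 100 reads in a library. Each is the 250 bases upstream of the RefSeq start in GRCm38.p6, 5′ to 3′ on the strand of the gene, with every CpG dinucleotide in capitals. The windows are chr7:123462044-123462293 on the plus strand for *Aqp8* and chr4:41098184-41098433 on the minus strand for *Aqp3*.
Aqp8: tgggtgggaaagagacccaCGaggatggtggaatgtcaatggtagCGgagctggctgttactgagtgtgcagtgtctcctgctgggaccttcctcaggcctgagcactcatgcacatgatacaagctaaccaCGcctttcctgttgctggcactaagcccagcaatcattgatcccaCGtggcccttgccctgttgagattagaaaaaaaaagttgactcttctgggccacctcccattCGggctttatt
Aqp3: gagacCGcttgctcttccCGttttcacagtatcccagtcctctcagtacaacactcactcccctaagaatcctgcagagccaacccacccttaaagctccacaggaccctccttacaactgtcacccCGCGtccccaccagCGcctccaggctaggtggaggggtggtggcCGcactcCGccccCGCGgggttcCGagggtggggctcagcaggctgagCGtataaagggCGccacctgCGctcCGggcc
The *Aqp8* window holds 5 CpGs, which is 0.291 of the number its base composition would give, and the *Aqp3* window holds 14 CpGs, a ratio of 0.57. Among 32851 RefSeq promoter windows of the same length the median was 6 CpGs and a ratio of 0.373, and 34% had a ratio of at least 0.6. The sequences were also searched on both strands for a TATA box (TATAAA), an E-box (CACGTG), a GC box (GGGCGG) and a GATA motif (AGATAA). Of these, the *Aqp8* window holds the E-box, which occurs in 6.02% of all windows and also in those of *Aqp2*, *Aqp5* and *Aqp6*. The *Aqp3* window holds the TATA box and the GC box, which occur in 12.4% and 32.7% of all windows. The GATA motif, found in 9.99% of all windows, is in neither. These are letter matches and were not tested as binding sites.

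In shLuc ES cells at 72 h, *Aqp8* was read 230 times, an RPKM of 1.98 (1.74 to 2.26). In shKdm5b cells it was read 0 times, which allows a level of up to 0.0342 RPKM. By counting error alone, the exact interval of the reads ends at 1.74% of the control, or 57.5-fold lower in shKdm5b cells. Copies of the same fragment among the 230 reads were not looked for and would weaken this limit. The other *Aqp8* entry, which is 1486 rather than 1483 bases long, also had 230 and 0 reads. In the shLuc library *Aqp8* ranked 10230th of 21935 genes by RPKM, so it was a low transcript in the control as well. A limit was then set at 230 reads in the shLuc library, the count of *Aqp8* itself. Among the 11171 genes at or above it, *Aqp8* alone had no read in the shKdm5b library (0.00895% of these genes). Since *Aqp8* was chosen for its fall, this is a description and no measure of rarity. Lowering the limit to 50 reads in either library gave 13622 genes, of which 6 (0.0440%) had no read in the other one. All 6 were at 0 in shKdm5b cells and 0 were at 0 in shLuc cells. Beside *Aqp8* they were *Hoxa11* (125 reads in shLuc), *Habp2* (79 reads), *Il10* (71 reads), *Hoxa11as* (67 reads) and *Afp* (65 reads), named here after their values were seen. The shKdm5b library also had fewer distinct alignment positions, 14639660 against 25736755 in shLuc. The part of this difference in the zeros, that of *Aqp8* included, was not tested. With 0.1 added to RPKM, 15 genes above 1 RPKM in a library had a lower log2 ratio than *Aqp8* (-4.38). *Kdm5b* (-5.07) and *Cubn* (-4.50) were among them.

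Across the family, 5 members had over 100 reads in at least 1 library and the other 5 stayed under 10 reads in both. The 5 read members, *Aqp3*, *Aqp5*, *Aqp6*, *Aqp8* and *Aqp11*, were also those with an RPKM above 1 in at least 1 library. In shLuc cells their levels ran from 1.03 RPKM for *Aqp6* to 1.98 RPKM for *Aqp8*, with *Aqp11*, *Aqp5* and *Aqp3* between them at 1.64, 1.64 and 1.55 RPKM. The counting intervals of *Aqp8*, *Aqp11*, *Aqp5* and *Aqp3* each overlap that of the next gene in this order, so the order among these 4 is not fixed by the reads. In shKdm5b cells the same genes were spread from 0 to 4.13 RPKM, and the order was *Aqp3*, *Aqp11*, *Aqp6*, *Aqp5* and *Aqp8*, with no overlap of neighbouring intervals. The summed RPKM of all 10 aquaporins was 7.96 in shLuc and 7.81 in shKdm5b cells. These sums are nearly equal as deposited, and each of the scalings used below raises the shKdm5b values. Within each sum, the share of *Aqp8* was 24.9% and 0%, that of *Aqp3* 19.5% and 52.9%, that of *Aqp11* 20.7% and 31.2%, and that of *Aqp5* 20.6% and 4.32%.

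**Figure D1:**
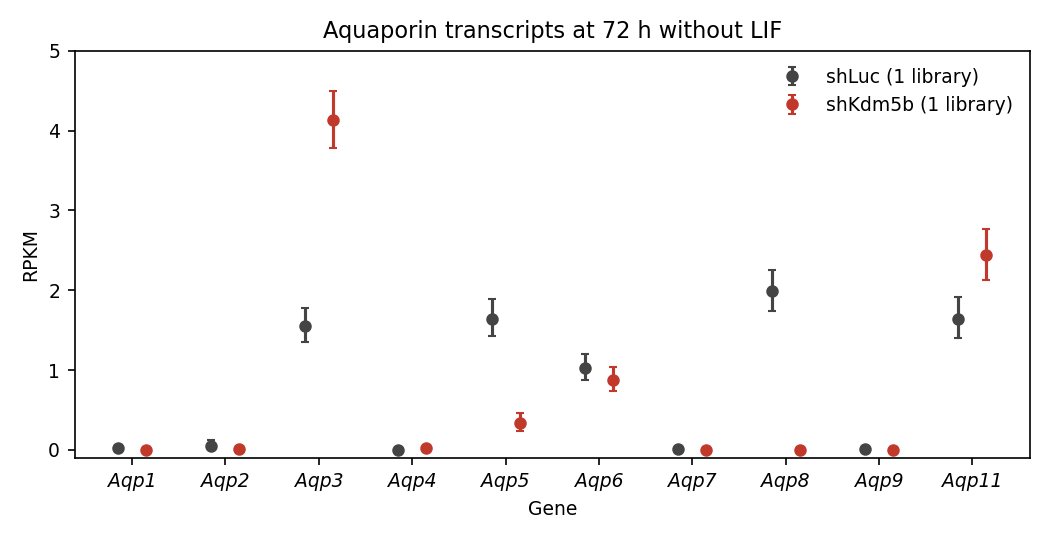
RPKM (vertical axis) of the 10 aquaporin genes (horizontal axis) in the shLuc library (grey) and the shKdm5b library (red), 1 library each, with exact 95% Poisson intervals of the reads. *Aqp8* goes from 1.98 to 0 and *Aqp5* from 1.64 to 0.337, while *Aqp3* goes from 1.55 to 4.13 and *Aqp11* from 1.64 to 2.43.

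A gene was counted as different when its RPKM, with 0.1 added, differed by more than 1.5-fold and its RPKM was above 1 in at least 1 library. By this rule 48.3% of 11804 genes differed between the libraries, 16.3% being higher and 32.0% lower in shKdm5b cells. This split of 1921 higher and 3781 lower genes became 2864 and 2758 after TMM scaling, which removes a shift of -0.22 on the log2 scale. Of the 5 aquaporins above 1 RPKM, 3 differed, *Aqp8* and *Aqp5* lower and *Aqp3* higher. *Aqp5*, *Aqp6* and *Aqp8* were above 1 RPKM in the shLuc library only, so *Aqp8*, at 0 in the other library, had to differ once it passed. With 5 members and 48.3% of all genes past the same thresholds, the number does not set the family apart. The median log2 ratio of the 8 aquaporins with at least 4 reads in a library was -0.28, against -0.21 over the 16846 such genes.

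**Figure D2:**
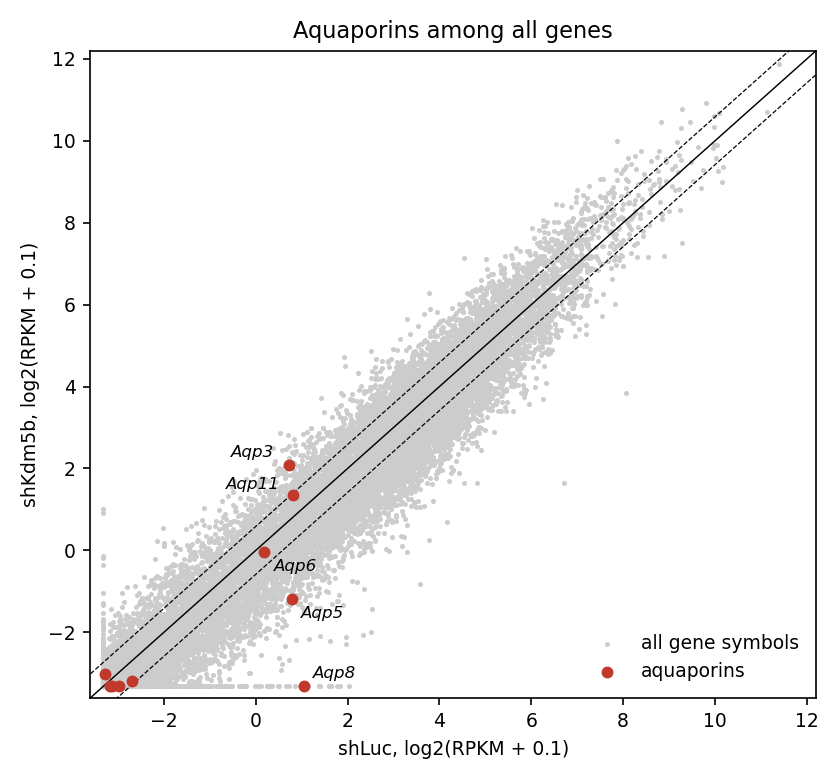
Level of every gene symbol (grey) and of the aquaporins (red) as log2(RPKM + 0.1), shLuc on the horizontal and shKdm5b on the vertical axis, with the line of equality and dashed lines at 1.5-fold. *Aqp8* sits on the floor of the plot at 0 reads in shKdm5b cells, *Aqp5* below and *Aqp3* above the dashed lines, and the 5 members with under 10 reads cluster at the lower left.

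*Aqp5*, the water channel of salivary, lacrimal and airway glands, was the other member that was lower. It had 199 reads (1.64 RPKM) in shLuc and 38 reads (0.337 RPKM) in shKdm5b cells, 4.87-fold lower with an interval of 3.43 to 7.09. Its transcript has the highest GC content of the family, 64%. A correction that levels the log2 ratios of all genes over GC content moved that of *Aqp5* from -1.99 to -1.18, still past 1.5-fold. The 250 bases before its RefSeq start hold 38 CpGs, a ratio of 1.01 at the 94.6th percentile of the RefSeq windows, but 246 of these bases are exonic in GENCODE, so they are not printed.

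*Aqp3*, an aquaglyceroporin of skin and kidney collecting duct, was the member that was higher. It had 214 reads (1.55 RPKM) in shLuc and 529 reads (4.13 RPKM) in shKdm5b cells, 2.66-fold higher with an interval of 2.26 to 3.13. In shKdm5b cells *Aqp3* thus had the highest RPKM of the family. Its log2 ratio of 1.35 became 1.78 with the GC correction and was between 1.52 and 1.57 under the 3 scalings tried.

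*Aqp11*, a distant member of the family found in the endoplasmic reticulum and needed in kidney tubules, lay just under the threshold. It had 170 reads (1.64 RPKM) in shLuc and 234 reads (2.43 RPKM) in shKdm5b cells, a ratio of 1.48 (1.21 to 1.81). Shifting the shKdm5b library by the median difference of all expressed genes, -0.17 on the log2 scale, took *Aqp11* past 1.5-fold with a log2 ratio of 0.70, and both other scalings and the GC correction did so too, whereas the GC and length correction left it at 0.40. *Aqp6*, a channel of intracellular vesicles in kidney intercalated cells, had 166 reads (1.03 RPKM) in shLuc and 131 reads (0.875 RPKM) in shKdm5b cells. Its ratio was 0.849 with an interval of 0.67 to 1.07, so a difference was not detectable at this depth, and the sign of its log2 ratio turned from -0.21 to 0.38 after the GC correction.

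The remaining 5 aquaporins were at the edge of detection in both libraries. *Aqp1*, the water channel of red cells and proximal tubule, had 6 and 0 reads in shLuc and shKdm5b cells. *Aqp2*, the vasopressin-regulated channel of the collecting duct, had 6 and 1 reads. *Aqp4*, the main water channel of astrocytes, went the other way with 1 and 9 reads. The glycerol channels of fat and liver, *Aqp7* and *Aqp9*, had 2 and 0 reads and 3 and 0 reads. The highest of these levels was 0.0542 RPKM, that of *Aqp2* in shLuc cells. Counting intervals of the ratio include 1 for *Aqp2* (0.0039 to 1.48), and exclude it for *Aqp1* (no more than 0.913) and *Aqp4* (1.34 to 424), on no more than 10 reads each.

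Several aquaporin genes lie side by side in the GRCm38 annotation, and these neighbours differed in the size of their ratios. *Aqp2*, *Aqp5* and *Aqp6* follow each other on chromosome 15, where *Aqp5* was lower by 4.87-fold and the adjacent *Aqp6* was within 1.5-fold. *Aqp3* and *Aqp7* follow each other on chromosome 4, where *Aqp3* was higher and *Aqp7*, with 2 and 0 reads, gives no direction. Next to *Aqp8* on chromosome 7, *Lcmt1*, which encodes a protein phosphatase methyltransferase, had 18.6 RPKM in shLuc and 20.2 RPKM in shKdm5b cells (ratio 1.08, 1.02 to 1.15). *Arhgap17*, the gene beyond it, was 1.56-fold higher (1.47 to 1.66), with 1784 and 2592 reads. On the other side *Zkscan2*, a zinc finger gene, was low in both libraries, with 131 and 63 reads (ratio 0.517, 0.377 to 0.704). The next coding gene on that side, *Hs3st4*, was not analysed here. The lowest of these 3 neighbours kept 51.7% of its control level, where the counting interval of *Aqp8* ends at 1.74%. A contrast of this kind follows from the choice of *Aqp8* for its fall, and the neighbours were not chosen that way.

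The genes whose levels in both libraries were nearest to those of *Aqp8*, by Euclidean distance on log2(RPKM + 0.1), were *Mir1839*, *Snora69*, *Mir19b-2*, *Mir2861* and *Snora62*. These are small RNAs with entries of 73 to 128 bases and 11 to 25 reads in shLuc cells, which polyA RNA-Seq measures poorly. With the search limited, after these were seen, to genes with at least 100 reads in the shLuc library, the nearest 5 were *Apoa4*, *Apob*, *Tcfec*, *Hnf4a* and *Nxf7*. *Apoa4* and *Apob* encode apolipoproteins of lipid-secreting epithelia, and *Hnf4a* encodes a transcription factor of visceral endoderm, liver and gut. *Apoa4* had 178 reads in shLuc and 4 reads in shKdm5b cells, *Apob* had 1697 and 58 reads, *Tcfec* had 193 and 6 reads, *Hnf4a* had 496 and 31 reads, and *Nxf7* had 253 and 16 reads. They were 41.4-fold, 27.2-fold, 29.9-fold, 14.9-fold and 14.7-fold lower in this order. Falls of this size follow from the choice, since each gene was picked for levels near those of *Aqp8* in both libraries. The measure rests on 2 libraries, so it groups genes by their levels and no more.

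Markers of extra-embryonic endoderm were lower in the same library as *Aqp8*. All 10 listed genes had fewer reads and a lower RPKM in shKdm5b cells, and the list was written with earlier results of these data known. Their median log2 ratio was -2.47, against -0.21 over the 16846 genes with at least 4 reads in a library. Of the 10, 7 were above 1 RPKM in the shLuc library and only *Dab2* was above it in both. The number past the thresholds is therefore not compared with that of all genes. The summed RPKM of the 10 genes was 36.9 in shLuc and 5.06 in shKdm5b cells, 7.29-fold lower. *Gata4* and *Gata6*, transcription factors that specify this lineage, were 4.78-fold (3.96 to 5.80) and 3.89-fold (2.92 to 5.25) lower. *Sox17* had 60 and 4 reads and *Sox7* had 206 and 6 reads. *Cubn*, a receptor for protein uptake at the apical surface of visceral endoderm, had 4920 and 123 reads, 37.2-fold lower (31.1 to 44.9). Its partner *Amn* was 6.49-fold lower (4.77 to 9.01), and the endocytic adaptor *Dab2* was 5.87-fold lower (5.46 to 6.31). Among the secreted proteins, *Ttr* was 18.8-fold lower with 243 and 12 reads, *Apoa1* was 6.90-fold lower with 215 and 29 reads, and *Afp* had 65 and 0 reads, at least 15.9-fold lower by its exact interval. *Afp* was the only one of the 10 at 0. The scalings and the GC correction were not examined for these markers, whose GC content ran from 46.1% (*Afp*) to 62.9% (*Amn*). The interval of *Aqp8* (at most 1.74% of the control left) lies below those of *Cubn*, *Gata4*, *Gata6*, *Ttr*, *Apoa1*, *Amn* and *Dab2*, and overlaps those of *Sox7* and *Afp*. That of *Sox17* begins just above it. Because *Aqp8* was chosen for its very large fall, its place among these markers is a description only. The part of these cells in the level of *Aqp8* was not tested, and in bulk RNA fewer cells of a type and less RNA per cell cannot be told apart.

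**Figure D3:**
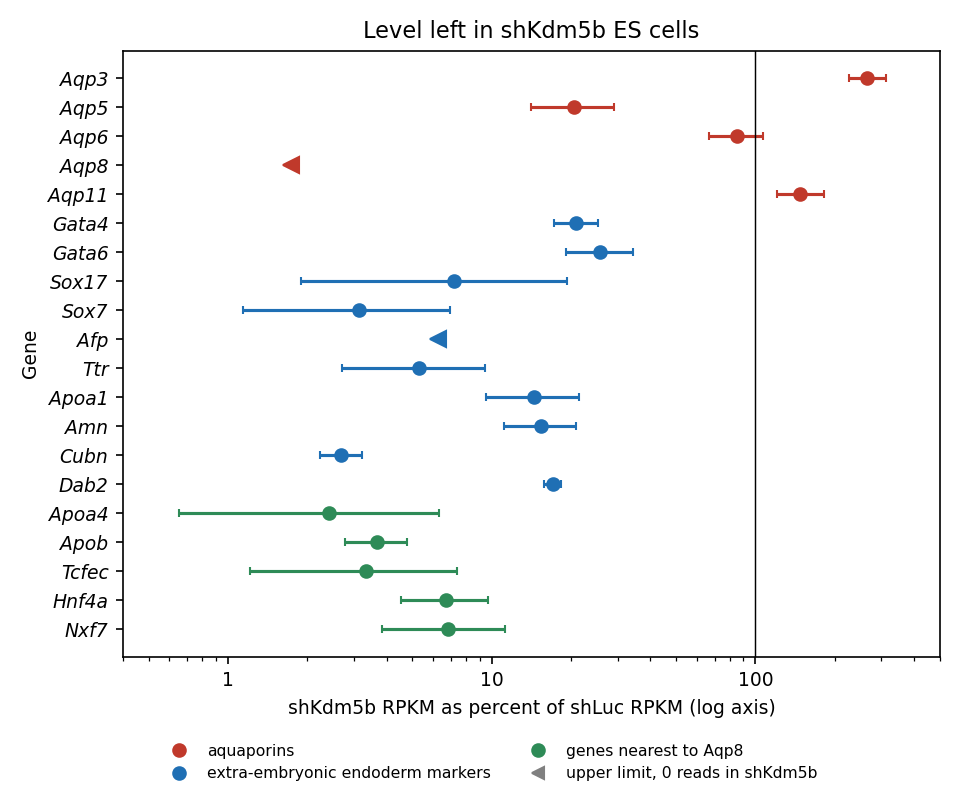
Level in the shKdm5b library as a percentage of the shLuc level (horizontal log axis), with exact 95% counting intervals, for the 5 read aquaporins (red), the 10 extra-embryonic endoderm markers (blue) and the 5 genes nearest to *Aqp8* with at least 100 reads in shLuc (green). Left-pointing triangles mark upper limits for genes with 0 reads in shKdm5b, at 1.74% for *Aqp8* and 6.28% for *Afp*, and the blue genes all lie below 100%, as do the green genes by the way they were chosen.

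In the mesoderm and neural lists no gene was lower by the thresholds used above, and the trophectoderm list had genes past them on both sides. Only 1 mesoderm, 4 neural and 5 trophectoderm genes were above 1 RPKM in a library, too few to set these lists apart. Over all genes at that level, 32.0% were lower and 48.3% differed in either direction. Among the 6 mesoderm and primitive streak genes, only *Eomes* was above 1 RPKM, and it was higher (2.45 and 4.05 RPKM). *T* had 6 and 47 reads. The other 4 had fewer reads in shKdm5b cells, but their ratio intervals all include 1. Among the 6 genes of trophectoderm and epithelium, *Epcam*, *Krt18* and *Krt19* were higher and *Krt8* was lower by more than 1.5-fold. Among the 4 neural genes, *Nes* was 1.82-fold higher, *Sox1* and *Pax6* had ratios of 1.50 and 1.09, and *Otx2* had a ratio of 0.743 (149 and 111 RPKM).

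Genes that work with aquaporins in water, solute and cell volume balance were read from a list of 38 genes. Of these, 24 had an RPKM above 1 in at least 1 library, and 9 (37.5%) were more than 1.5-fold different, 8 lower and 1 higher in shKdm5b cells. The split was 6 lower and 3 higher with TMM scaling, where *Atp1b1* and *Slc5a3* joined the higher genes, and 3 lower and 2 higher with GC content and length corrected. *Slc4a2*, *Gpd1* and *Mip*, all lower, were above 1 RPKM in the shLuc library only. Among the 21 genes above it in both libraries, 6 differed, 5 lower and 1 higher. The share of 37.5% is below the 48.3% of all genes, and the median log2 ratio of the 24 was -0.26 against -0.21 over all 11804. The largest fall was that of *Slc4a2*, a chloride-bicarbonate exchanger, from 3.41 to 0.662 RPKM (5.15-fold lower, 4.43 to 6.01). *Gpd1*, the cytosolic glycerol-3-phosphate dehydrogenase that links glycerol with glycolysis, was 3.85-fold lower (2.87 to 5.24). Its mitochondrial counterpart *Gpd2* had 27.6 and 27.3 RPKM, and glycerol kinase, under its older symbol *Gyk*, had 3.92 and 4.92 RPKM.

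Among ion transporters that set cell volume, the potassium-chloride cotransporter gene *Slc12a4* was 2.84-fold lower (2.67 to 3.04). The swelling-activated anion channel genes *Lrrc8a*, *Lrrc8b*, *Lrrc8c* and *Lrrc8d* stayed within 1.5-fold, and *Lrrc8e*, which had 116 and 52 reads, was below 1 RPKM in both libraries. *Stk39*, a kinase that switches these cotransporters, was the gene that was higher, with 5.52 and 13.1 RPKM (2.37-fold). *Nfat5*, the transcription factor of the hypertonic response, was lower by 1.52-fold, close to the threshold. *Slc6a6*, the taurine transporter gene, was 1.83-fold lower (1.79 to 1.87), while the osmolyte enzyme genes *Akr1b3* and *Sord* stayed within 1.5-fold. *Mip*, the lens aquaporin, was 1.78-fold lower with 176 and 92 reads, but 57% of its exon bases overlap another annotated gene, *Gm26847*, and the library preparation did not mark strand, so its reads cannot be told from those of that gene. With GC content corrected, *Slc6a6* and *Mip* were no longer past 1.5-fold, nor was *Nfat5* with length corrected as well. *Slc4a2*, *Gpd1*, *Slc12a4* and *Stk39* stayed past it under both corrections, and *Atp1b1* joined them. *Aqp12* had 0 reads in both libraries, and the urea transporter genes *Slc14a1* and *Slc14a2* had 0 and 0 reads and 0 and 4 reads.

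**Figure D4:**
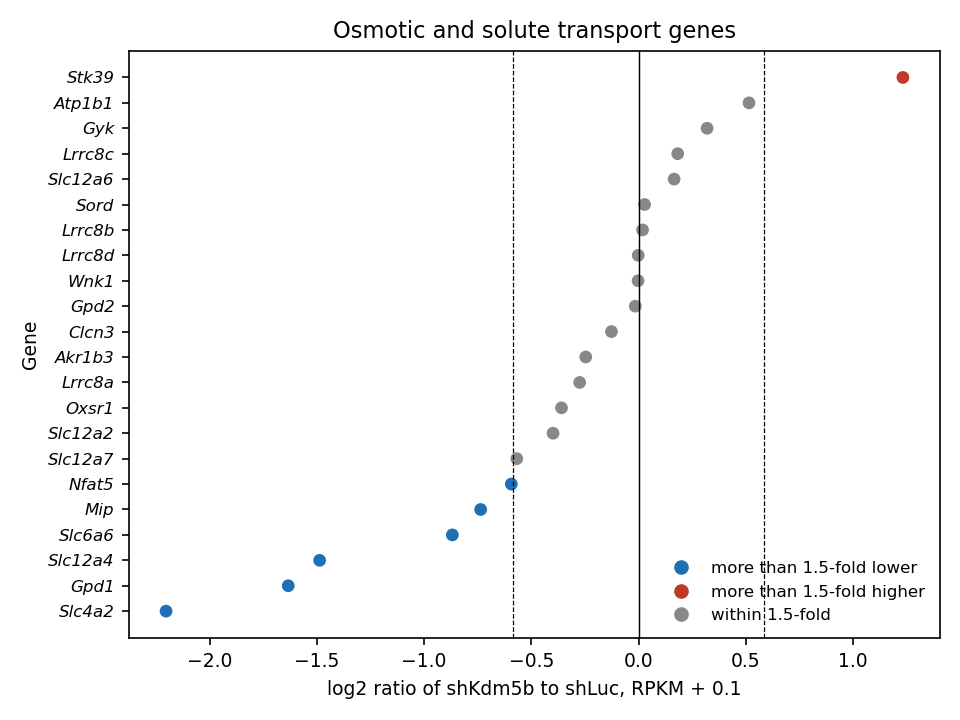
Log2 ratio of shKdm5b to shLuc (horizontal axis, RPKM + 0.1) for 22 of the 24 osmotic and solute transport genes with an RPKM above 1, with dashed lines at 1.5-fold. Of these, 6 genes (blue) lie past the line on the lower side, led by *Slc4a2*, 1 (red, *Stk39*) on the higher side and 15 (grey) between the lines.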

How the data were processed

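RNA-Seq of polyadenylated RNA from 1 shLuc and 1 shKdm5b ES cell culture was used. Per the labels, the authors' reads were processed with CASAVA 1.0 and Bowtie 0.12.7 against mm8, and the counting program and the handling of multiply mapped reads are not given for RNA-Seq in the sources used here. The authors deposited, for 27405 RefSeq entries, a read count per entry and an RPKM normalized to transcript length and library depth, together with the alignments.

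The members and gene lists were chosen with earlier results of these data known. The rule for named genes covered the 10 members, listed osmotic genes past the thresholds, the 5 genes nearest to *Aqp8*, *Kdm5b* and the coding genes next to *Aqp8*. Without replicates no test could be made, although the study's methods name edgeR. Ratios of RPKM have exact Clopper-Pearson intervals and levels have exact Poisson intervals (SciPy 1.17.1). Calls and log2 ratios used a pseudocount of 0.1, and ratios were given from 4 reads. Alternatives were other pseudocounts, thresholds, entries, scalings (TMM from edgeR 4.0.16) and lowess corrections for GC content and length (statsmodels 0.14.6). GC content, exons and gene order came from GENCODE M21 and RefSeq on GRCm38, which matched 97.1% of symbols for GC content, and promoters from RefSeq for every member except *Aqp4*. No coordinates were moved between builds, so the alignment positions of single genes were not analysed here. The calls and intervals were tested on simulated reads with counting error only, for genes well read in both libraries. That test does not cover genes without reads in a library, such as *Aqp8*. A few listed genes are counted but not reported here by name.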

Additional observations from a re-analysis of the deposited data

How the results depend on the processing

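No paired analysis was possible because shLuc and shKdm5b have a single library each, which also means that none could be left out. Counting each alignment position once for *Aqp8* was not run, because gene positions on mm8 were not used here. The log2 ratio of *Aqp8*, -4.38, depends on the pseudocount because its shKdm5b level is 0 reads. It was -1.58 with a pseudocount of 1, -7.64 with 0.01 and -5.34 when its overlapping entries were summed, which counts the same reads again. No scaling or correction can move it, since 0 reads stay at 0, so these alternatives are no check of this value. The median log2 ratio of the aquaporins, -0.28, ran from -0.97 with a pseudocount of 0.01 to -0.05 with a pseudocount of 1. It was -0.07 with the GC correction and -0.06 with length corrected as well.

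The number of aquaporins past the thresholds, 3, was 0 with RPKM above 11, which no aquaporin reached, and 1 (*Aqp3*) with RPKM above 1 in both libraries, which only *Aqp3* and *Aqp11* met. It was 4 under the 3 scalings and the GC correction, by the addition of *Aqp11*, and 3 otherwise. *Aqp6* turned from -0.21 to 0.38 with GC content corrected, and to 0.36 with length corrected as well. The number of all genes, 5702, was 2678 with RPKM above 11, 2688 with a fold above 2 and 3747 with GC content and length corrected. Its split of 1921 higher and 3781 lower genes became 2621 and 3009 after median scaling, 2864 and 2758 after TMM scaling and 2226 and 2086 after the GC correction. The number of osmotic and solute transport genes, 9, was 4 with RPKM above 11, 5 with a fold above 2 and 5 with GC content and length corrected, and its split was 7 lower and 3 higher after median scaling. Depth limits the 5 aquaporins with under 10 reads, whose ratios are not to be relied on.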
